A study of Mus musculus with 8 samples.

Results

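The 9 genes described here encode the PGC-1 coactivators (Ppargc1a and Ppargc1b), the estrogen-related receptors (Esrra, Esrrb and Esrrg), the fatty acid sensing receptors PPARα and PPARδ (Ppara and Ppard), nuclear respiratory factor 1 (Nrf1) and mitochondrial transcription factor A (Tfam). They were taken by gene name from the non-control rows of 8 Agilent arrays, with every probe of each gene. All 9 genes were on the array, with 20 of its 56605 distinct probes. Of these 20 probes, 18 exceeded background clearly (the scanner's own flag) on 4 or more arrays and were tested, among 31649 tested probes and 17584 tested genes in all.

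The arrays hold RNA of the tibialis anterior, a fast-twitch muscle of the lower leg, from male C57BL/6J mice aged 14 weeks. The labels give 4 control samples and 4 samples from mice that received Porphyromonas gingivalis, a bacterium of the gum pocket, by mouth for 6 weeks. The protocol in the labels describes mice that were 8 weeks old and states High-fat diet 32 as their food with no other diet named, so no lean group is known to enter the comparison. That protocol calls the dosed mice by group names that no sample title carries, so how its text maps to these samples is not settled. It says that the bacteria came in 100 µL of saline through a feeding needle. The sources used here name neither the bacterial strain and dose nor what the controls received. The labels do not say outright that each sample is a separate mouse, so the p-values measure the spread between these samples.

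PGC-1 proteins do not bind DNA themselves. They dock on nuclear receptors such as the ERRs and PPARs, and on NRF-1, and recruit the enzymes that open chromatin. In muscle, PPARs switch on fatty acid uptake and oxidation, ERRs switch on the citric acid cycle and respiratory chain, and NRF-1 switches on Tfam, whose protein packages and transcribes mitochondrial DNA. Exercise, fasting and cold are known to raise Ppargc1a.

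Both promoters below are shown because each holds the letters of a binding motif that was searched for here. Each run is the 250 bases before the RefSeq start site on GRCm38.p6, written 5′ to 3′ on the strand of the gene. Capitals mark CCGGAAG, the core of a GABP site, in Tfam (chr10:71238045-71238294, minus strand) and the palindrome bound by NRF-1 in Ppara (chr15:85735526-85735775, plus strand).
Tfam promoter: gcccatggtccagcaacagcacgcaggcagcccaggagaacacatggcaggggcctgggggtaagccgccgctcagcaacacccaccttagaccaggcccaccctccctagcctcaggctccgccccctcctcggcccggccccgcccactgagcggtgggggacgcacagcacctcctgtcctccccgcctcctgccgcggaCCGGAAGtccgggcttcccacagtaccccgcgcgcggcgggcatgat
Ppara promoter: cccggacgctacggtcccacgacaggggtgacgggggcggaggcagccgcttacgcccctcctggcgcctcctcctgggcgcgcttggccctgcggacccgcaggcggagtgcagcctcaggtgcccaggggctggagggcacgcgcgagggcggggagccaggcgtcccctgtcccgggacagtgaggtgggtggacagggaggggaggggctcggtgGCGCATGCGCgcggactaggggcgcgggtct

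Motifs were searched on both strands of 32851 such windows, 13 of them belonging to 8 of the 9 genes. CCGGAAG was found in 6.91% of all windows and in 1 of the 13, that of Tfam. The NRF-1 palindrome was found in 0.782% of all windows and in 1 of the 13, that of Ppara. The Tfam window did not hold the NRF-1 palindrome. The ERR half-site AAGGTCA (4.08% of all windows), the PPAR direct repeat of AGGTCA with 1 base between its copies (0.0335%), which can overlap the former, and the cyclic AMP element TGACGTCA (1.55%) were in none of the 13 windows. These are matches of letters and were not tested as binding sites.

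On each array 56.3% to 59.3% of spots were well above background. Spots flagged as outliers made up 0.177% to 0.218% in the controls and 0.108% to 0.170% in the P. gingivalis arrays. The median processed intensity was 18.0 to 21.1 and 15.8 to 16.5, so both measures separated by group. Signals are given as log2 of the processed intensity relative to the 75th percentile of the array, which was 275 to 306 in the controls and 238 to 255 in the P. gingivalis arrays. All arrays were on 1 slide, with every control in its row 1 and every P. gingivalis array in row 2, so the effect of the row and that of the group cannot be told apart. The deposited value table, matched to the scanner arrays by its values, gives the other group to control 3, control 4, P. gingivalis 1 and P. gingivalis 2. Its controls are thus the arrays in slide columns 1 and 2, and its P. gingivalis samples those in slide columns 3 and 4. That grouping cannot be told apart from the slide column. The 4 arrays of undisputed group differ between groups in both row and column. The scanner files set the groups used here, and differences of the 9 genes' probes whose sign turns when the table's grouping is used instead are named.

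None of the 9 genes passed the adjusted threshold of 0.05 after oral P. gingivalis. The test was limma over all tested probes with Benjamini-Hochberg adjustment, and 0 of the 31649 probes passed it, a share of 0%. The lowest adjusted p of the 18 member probes was 0.36, for Ppard. Below an unadjusted p of 0.05 there were 2 member probes, Ppard and the brightest Nrf1 probe, both lower in P. gingivalis muscle. That is 2 of 18, where 11.2% of all tested probes passed, 6.36% lower and 4.84% higher. Groups did not overlap on 2 of the 18 probes, 1 lower and 1 higher, against 6.67% of all tested probes, 3.66% lower and 3.01% higher. By the brightest probe of each gene, 7 genes stood lower and 2 higher, with a median log2 difference of -0.077 beside -0.017 over 17584 tested genes, of which 55% stood lower.

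**Figure D1:**
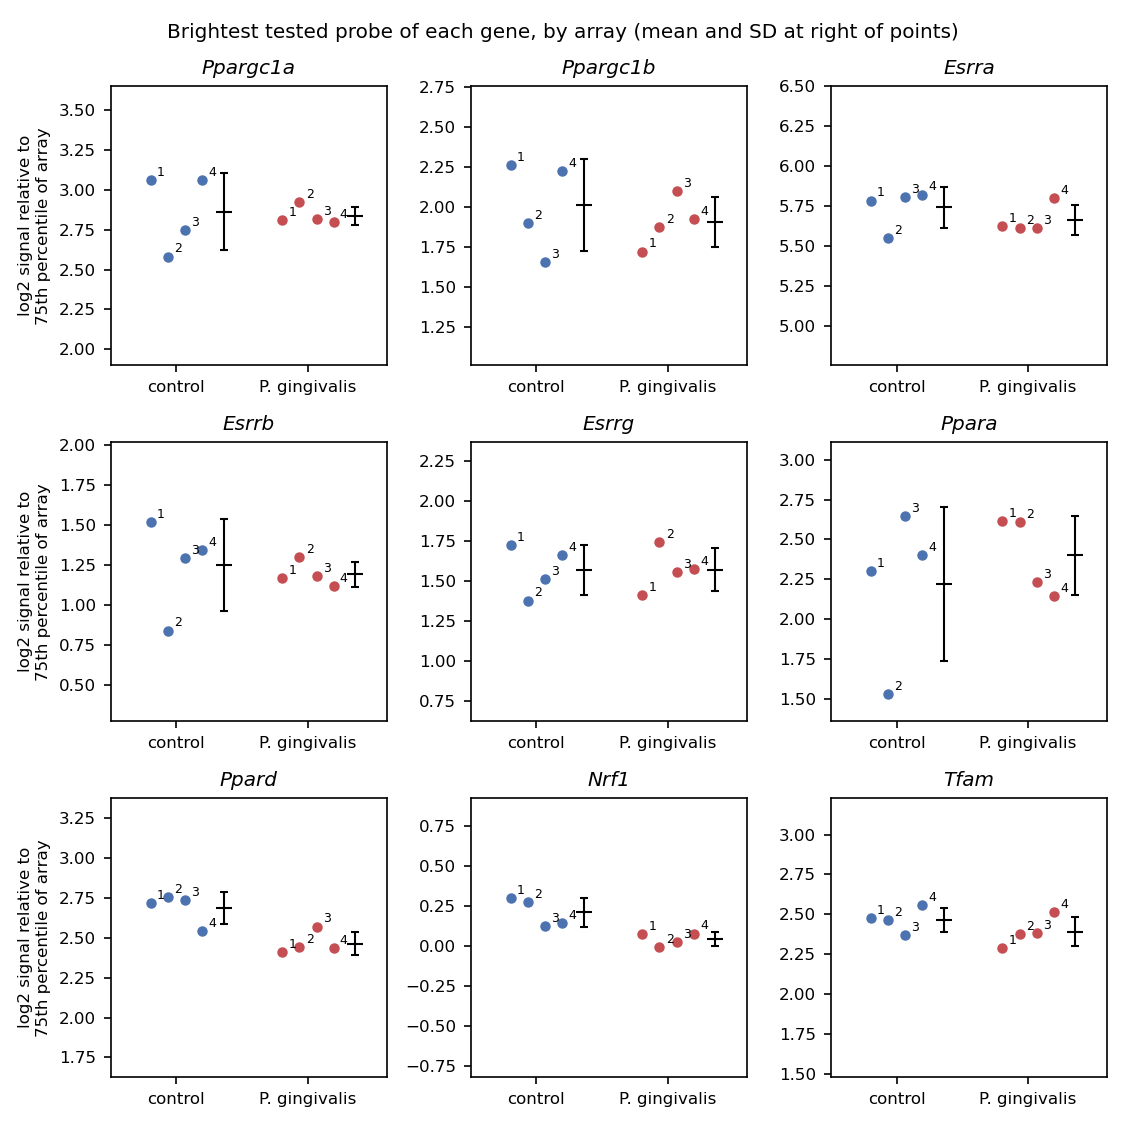
Log2 signal relative to the 75th percentile of the array for the brightest tested probe of each gene, in 4 control (blue) and 4 P. gingivalis (red) arrays, numbered by replicate, with mean and SD as bars. Each panel spans the same number of log2 units. Only Nrf1 has groups that do not overlap, and the controls spread more widely than the P. gingivalis arrays for Ppargc1a (SD 0.24 against 0.057).

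Ppargc1a, the coactivator that drives mitochondrial biogenesis, had nearly the same mean signal in both groups. On its brightest probe (A_51_P279038, chr5:51848928-51848987 of mm9, minus strand) the 4 controls read 3.06, 2.58, 2.74 and 3.06, and the 4 P. gingivalis arrays 2.81, 2.92, 2.82 and 2.80. Controls 1 and 4 were the highest arrays and controls 2 and 3 the lowest, so the P. gingivalis values all fell inside the control range. The groups differed by -0.026 ± 0.12 log2 units (SE), a 0.982-fold level with a 95% confidence interval of 0.818 to 1.18 (adjusted p = 0.95 by limma). Its sign turned without control 1 or without control 4 (0.041 each), and under the value table's grouping (0.012). The means were 2.86 ± 0.24 in controls and 2.84 ± 0.057 in P. gingivalis muscle (SD, n = 4 each).

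The second Ppargc1a probe (A_55_P2745394) lies 491 bases upstream along the transcript and is shown because it reads the end of the coding sequence. It is written 5′ to 3′ (chr5:51849419-51849478 of mm9, minus strand), and the capitals mark a stop codon that closes the reading frame open across the rest of the probe.
Ppargc1a probe A_55_P2745394: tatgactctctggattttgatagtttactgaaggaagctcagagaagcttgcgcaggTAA
Its signal was 0.91, 0.45, 0.63 and 0.85 in the controls and 0.59, 0.61, 0.54 and 0.58 in the P. gingivalis arrays. Controls 1 and 4 were again the highest of the 8 arrays and control 2 the lowest. Its difference was -0.13 ± 0.10 (SE, adjusted p = 0.657 by limma), and it turned to 0.010 under the value table's grouping.

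Ppargc1b, the related coactivator that also serves lipid synthesis genes, likewise had controls 1 and 4 highest and control 2 lowest on its dimmer probe, where the controls read 0.063, -0.43, -0.20 and 0.056. The P. gingivalis arrays read -0.35, -0.16, -0.22 and -0.26 on that probe, all between the lowest control and the highest. On the brighter probe the controls read 2.26, 1.90, 1.65 and 2.23, and the P. gingivalis arrays 1.72, 1.87, 2.10 and 1.92. Controls 1 and 4 were the 2 highest arrays here too, with control 3 lowest. The log2 differences were -0.11 ± 0.15 and -0.12 ± 0.12 (SE) on the brighter and dimmer probe, with adjusted p of 0.809 and 0.708 by limma. Both turned under the value table's grouping, to 0.037 and 0.061.

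**Figure D2:**
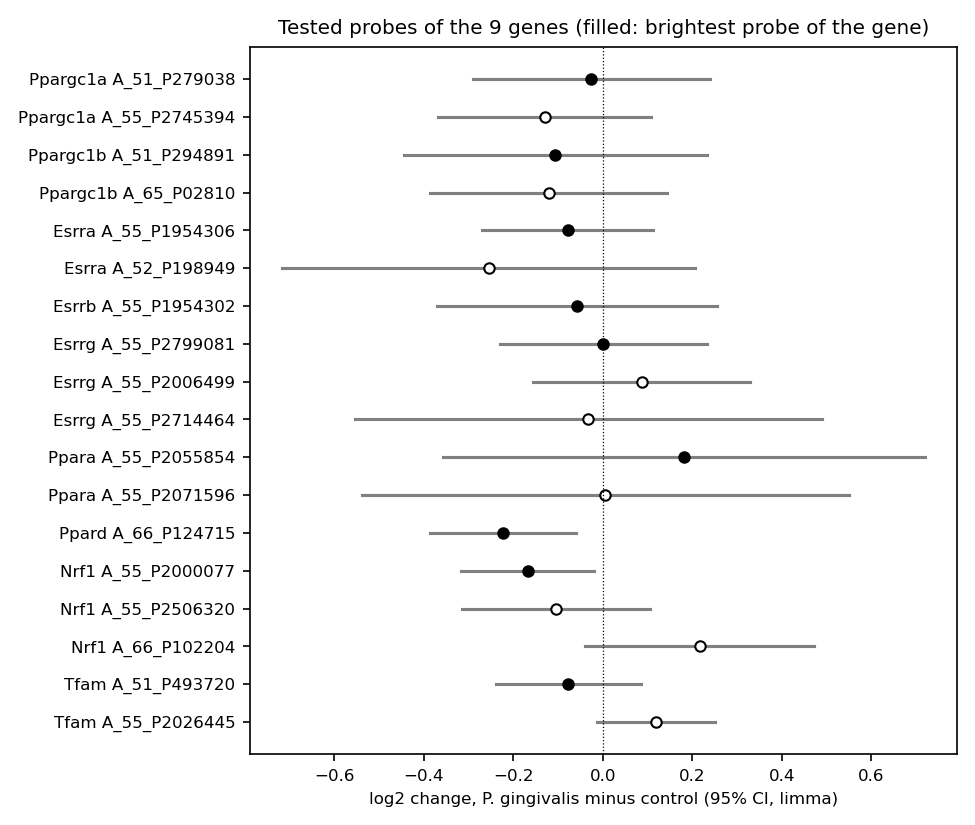
Log2 difference between P. gingivalis and control arrays for each of the 18 tested probes, as limma estimates with 95% confidence intervals. Filled points are the brightest probe of a gene and open points its other probes. Only the intervals of Ppard and of the brightest Nrf1 probe leave out 0.

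Among the estrogen-related receptors, which bind DNA without a known natural hormone, Esrra had the tightest values. Its main probe (A_55_P1954306, chr19:6985503-6985562 of mm9, minus strand) read 5.78, 5.55, 5.81 and 5.82 in the controls and 5.62, 5.61, 5.61 and 5.80 in the P. gingivalis arrays. Control 2 lay below the other controls and P. gingivalis 4 above the other P. gingivalis arrays, so the groups overlapped through 1 array on each side. It differed by -0.079 ± 0.083 (SE), or 0.947-fold with an interval of 0.83 to 1.08 (adjusted p = 0.739 by limma). With the groups of the value table it turned to 0.12, and on the 4 arrays whose group is undisputed to 0.039. A dim Esrra probe designed on a neonatal adipose cDNA ranged from -2.24 to -1.42 in controls and from -2.52 to -1.82 in P. gingivalis muscle (difference -0.25 ± 0.20, SE, adjusted p = 0.654 by limma).

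Esrrb, best known for its role in pluripotent cells, read 1.52, 0.84, 1.29 and 1.34 in the controls and 1.17, 1.30, 1.18 and 1.12 in the P. gingivalis arrays (A_55_P1954302, chr12:87862509-87862568 of mm9, plus strand). The P. gingivalis arrays lay between control 2 and control 1, the extremes of the controls. The estimated difference was -0.058 ± 0.14 (SE, adjusted p = 0.895 by limma), and it turned to 0.032 without control 1 and to 0.028 under the value table's grouping. Its other probe, designed on a retina cDNA, was not well above background on any array and was not tested.

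Esrrg, the ERR of oxidative muscle and heart, had equal means on its brightest probe (A_55_P2799081, chr1:190038683-190038742 of mm9, plus strand). The controls read 1.73, 1.38, 1.51 and 1.66, and the P. gingivalis arrays 1.41, 1.74, 1.55 and 1.57. The difference was 0.0013 ± 0.10 (SE), with a fold interval of 0.853 to 1.18 (adjusted p = 0.998 by limma). A difference so near 0 has no settled sign: it was -0.063 without control 2, -0.018 without control 3, -0.056 without P. gingivalis 2 and -0.037 with normexp background correction. The other probe for the same transcript stood at 0.087 ± 0.11 (SE, adjusted p = 0.778 by limma). The last Esrrg probe, for a separate Ensembl transcript, was well above background on only 2 control and 2 P. gingivalis arrays.

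Ppara, the PPAR that senses fatty acids in fasting, varied most between arrays of the 9 genes, with an SD of 0.37 over the 8 arrays. On its brighter probe (A_55_P2055854, chr15:85632110-85632169 of mm9, plus strand) the controls read 2.30, 1.53, 2.64 and 2.40 and the P. gingivalis arrays 2.62, 2.61, 2.23 and 2.14. Control 2 was the lowest array, and P. gingivalis 1 and 2 lay above P. gingivalis 3 and 4. The estimate was 0.18 ± 0.23 (SE), or 1.13-fold with an interval of 0.781 to 1.65 (adjusted p = 0.795 by limma), and without control 2 it was -0.048. The dimmer probe followed the same arrays, with controls at 1.08, 0.42, 1.41 and 1.06 and P. gingivalis arrays at 1.26, 1.35, 0.77 and 0.62, and a difference of 0.0056 ± 0.24 (SE, adjusted p = 0.996 by limma) that turned to -0.058 under the value table's grouping.

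Ppard, the PPAR most abundant in skeletal muscle and known for its part in endurance training, had the lowest p of the 9 genes. Its only probe (A_66_P124715, chr17:28438298-28438357 of mm9, plus strand) read 2.71, 2.76, 2.73 and 2.54 in the controls and 2.41, 2.44, 2.57 and 2.44 in the P. gingivalis arrays. Controls 1, 2 and 3 were above all P. gingivalis arrays, and control 4 lay just under P. gingivalis 3. The log2 difference was -0.22 ± 0.071 (SE), a 0.857-fold level with an interval of 0.765 to 0.96 (unadjusted p = 0.0136, adjusted p = 0.36 by limma). The adjusted p ran from 0.0602, with normexp correction, to 1 over the alternatives. The difference was -0.23 on the 4 arrays of undisputed group and -0.01 under the value table's grouping; that table's own values and labels gave 0.024.

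Nrf1, which encodes the activator of nuclear genes for respiration and not the like-named NFE2L1, had probes that went opposite ways. Its brightest probe (A_55_P2000077, chr6:30103035-30103094 of mm9, plus strand) read 0.30, 0.28, 0.12 and 0.15 in the controls and 0.078, -0.0075, 0.026 and 0.079 in the P. gingivalis arrays. Each P. gingivalis array was below each control. The log2 difference was -0.17 ± 0.065 (SE), or 0.89-fold with an interval of 0.803 to 0.987 (unadjusted p = 0.031, adjusted p = 0.412 by limma). Nrf1 kept its direction under all 20 alternatives, but many of them could not have turned it. Leaving out 1 array cannot reverse groups that do not overlap. Settings that changed only the probe filter or the error estimate repeat the same difference. For this probe the difference ran from -0.24 to -0.056, the latter with the value table's own values and labels. It was -0.068 under the value table's grouping. The mean over all tested Nrf1 probes differed by only -0.019 (exact permutation p = 0.886). A second probe, 8391 bases upstream on the chromosome (A_55_P2506320), stood at -0.10 ± 0.092 (SE, adjusted p = 0.683 by limma).

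The next Nrf1 probe is printed because its difference had the other sign. It lies further upstream (chr6:30067078-30067137 of mm9, plus strand), has a single reading frame free of stop codons, and is written 5′ to 3′ with no part marked.
Nrf1 probe A_66_P102204: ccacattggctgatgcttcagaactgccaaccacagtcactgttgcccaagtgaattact
It read -2.43, -1.93, -2.21 and -2.36 in the controls and -1.94, -2.02, -1.99 and -2.13 in the P. gingivalis arrays. Control 2 was the highest of all 8 arrays and the other controls were the 3 lowest. The log2 difference was 0.22 ± 0.11 (SE, unadjusted p = 0.0877, adjusted p = 0.502 by limma). Under the value table's grouping it turned to -0.094, the sign of the other tested Nrf1 probes. The remaining Nrf1 probe was not well above background on any array.

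Tfam, the packaging and transcription factor of mitochondrial DNA, also had probes of opposite sign, 157 bases apart. The brighter (A_51_P493720, chr10:70691103-70691162 of mm9, minus strand) read 2.47, 2.47, 2.37 and 2.56 in the controls and 2.29, 2.38, 2.38 and 2.51 in the P. gingivalis arrays, with a difference of -0.077 ± 0.070 (SE, adjusted p = 0.697 by limma). The groups overlapped on this probe, and the difference turned to 0.053 under the value table's grouping. The dimmer (A_55_P2026445) read 1.78, 1.70, 1.77 and 1.69 in the controls and 1.83, 1.82, 1.83 and 1.93 in the P. gingivalis arrays. Each P. gingivalis array was above each control, by a mean of 0.12 ± 0.057 (SE, unadjusted p = 0.0715, adjusted p = 0.476 by limma). The difference was 0.14 with median scaling, 0.056 with normexp correction and 0.023 under the value table's grouping. In that table's values with matched groups it was 0.012. The mean over both probes was 0.021 higher in P. gingivalis muscle.

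Because probes of the same gene disagreed, the log2 ratio of the dimmer to the brighter probe was compared within each array, where the scaling of the array cancels. This comparison was chosen after the values were seen, and it covers all 11 pairs of tested probes in 7 of the genes. In 3 pairs the groups did not overlap, 27.3% of 11 against 6.89% of 14931 such pairs over all genes. The Ppargc1a ratio was -2.15 ± 0.039 in controls and -2.26 ± 0.045 in P. gingivalis muscle (SD, n = 4 each), so its probe at the coding end stood lower relative to the other by 0.10. The ratio of the upstream to the brightest Nrf1 probe was -2.45 ± 0.23 in controls and -2.06 ± 0.096 in P. gingivalis muscle, and the Tfam ratio -0.73 ± 0.11 and -0.54 ± 0.054 (SD, n = 4 each). Each of the 3 had a two-sided exact permutation p of 0.0286, the smallest that 4 against 4 arrays allow, and an adjusted p of 0.105 over the 11 pairs.

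The 3 ratios differed by at most 0.031 between the groups of the value table, and all then overlapped. With normexp correction the Nrf1 ratio alone stayed free of overlap (0.36), with the others at -0.075 for Ppargc1a and 0.15 for Tfam. After quantile normalization the Tfam ratio alone did (0.20). None of the 3 ratios passed adjustment, and a ratio cannot tell which of its probes differed between the groups. Whether these probes read different transcripts of their genes was not tested.

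**Figure D3:**
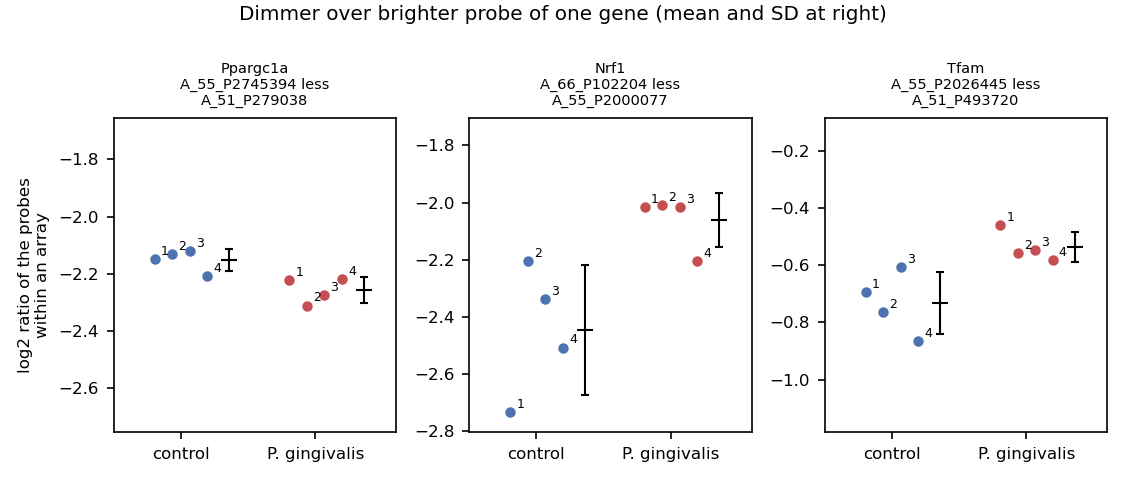
Log2 ratio of the dimmer to the brighter probe within each array for Ppargc1a, Nrf1 and Tfam, in control (blue) and P. gingivalis (red) arrays numbered by replicate, with mean and SD as bars. The panels span the same number of log2 units, and in each the groups are separate, with the widest gap between means for Nrf1 (0.38).

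Several arrays took the same place on many of the member probes, which are not independent where they share a gene. Control 2 was the lowest control on 9 of the 18 tested probes, and control 1 the highest on 9, where over all tested probes they held those places on 27.3% and 27%. Among P. gingivalis arrays, replicate 2 was the highest on 9 of the 18 probes, against 21.3% over all tested probes. Leaving out control 2 raised the count of member probes under an unadjusted p of 0.05 from 2 to 5, with 4 lower and 1 higher in P. gingivalis muscle, and 15 of the 18 probes then stood lower. Without control 1 there was 1 such probe, and 9 probes stood lower and 9 higher. None passed adjustment in either case (lowest adjusted p = 0.477 without control 2 and 0.542 without control 1, limma). Of all 31649 tested probes, 3544 were under an unadjusted p of 0.05 by limma with every array kept. That count was 2881 without control 2 (1195 higher) and 2821 without control 1 (1402 higher). The median difference of all tested probes was then -0.014 and -0.0096. Both arrays were picked here for their places on these same member probes.

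Other genes of the pathway were read from 6 lists chosen with earlier results of these data known. No gene of any list passed adjustment (lowest adjusted p = 0.309 by limma), so counts below are of signs and of unadjusted p under 0.05. Over all tested genes 11% had such a p, 6.17% lower and 4.86% higher, and groups did not overlap for 6.98%, 3.84% lower and 3.14% higher.

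Genes of fatty acid handling known as PPAR targets stood mostly lower: 21 of 28 tested genes were lower and 7 higher, with a median log2 difference of -0.086 beside -0.017 for all genes. At an unadjusted p under 0.05 there were 5 lower genes and 1 higher. Acot2 and Acot1, near-identical thioesterases that split long-chain acyl-CoA and whose probes may share signal, stood at -0.43 ± 0.15 and -0.56 ± 0.21 (SE). Ucp3, a mitochondrial carrier induced by fatty acids, stood at 0.26, with 2.31 ± 0.11 in controls and 2.57 ± 0.16 in P. gingivalis muscle (SD, n = 4 each). Pdk4, the kinase that shuts pyruvate dehydrogenase and a sensitive PPAR target, stood at -0.021 (8.48 ± 0.046 and 8.46 ± 0.083), and Cpt1b, the entry step of fatty acids into mitochondria, at -0.094. For some genes of the list the sign depended on the probe. Cpt2 stood at -0.18 on its brightest probe and at 0.12 on its dimmer one. Lpl stood at 0.023 on its brightest probe and at 0.10, -0.28, -0.73, -0.71 and 0.09 on its dimmer ones. The list median was -0.041 under the value table's grouping and 0.01 in the value table under its own labels.

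Respiratory and citric acid cycle genes known as ERR and PGC-1 targets lay close to 0. Of 27 tested genes 15 were higher and 12 lower, the median was 0.00076, the range by the brightest probes -0.13 to 0.17, and none had an unadjusted p under 0.05. Slc25a3, the mitochondrial phosphate carrier, stood highest at 0.17 and Idh2, mitochondrial isocitrate dehydrogenase, lowest at -0.13. Atp5b, the catalytic subunit of ATP synthase, stood at 0.11, Idh3a at 0.037 and cytochrome c (Cycs) at -0.062. Dimmer probes of these genes ranged more widely, from -0.40 for Ndufs1, a complex I subunit, to 0.31 for Atp5b.

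Among genes that copy and transcribe mitochondrial DNA, 13 of 20 were lower and 7 higher, with a median of -0.028. The 2 genes with an unadjusted p under 0.05 were Gabpb2 (-0.23) and Gabpb1 (-0.19), regulatory subunits of GABP. The letters capitalised in the Tfam promoter match the core of its motif, and no link between these genes and Tfam was tested. Gabpb1 read 0.34, 0.49, 0.38 and 0.31 in the controls and 0.11, 0.21, 0.23 and 0.22 in the P. gingivalis arrays, with no overlap (adjusted p = 0.378 by limma). Dimmer probes stood at -0.12 and 0 for Gabpb1 and at 0.01 and 0.08 for Gabpb2, so the other Gabpb2 probes did not share its sign. The mitochondrial methyltransferase-like factors Tfb1m and Tfb2m stood at 0.062 and -0.097, and Tk2, a mitochondrial thymidine kinase, at 0.28.

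Of 33 tested cofactors and upstream regulators of PGC-1, 15 were higher and 18 lower, with a median of -0.0035, which was 0.04 without control 2. At an unadjusted p under 0.05 there were 3 lower genes, Hdac5, Yy1 and Sirt1, and 1 higher, Nrip1. Hdac5, a deacetylase that holds back MEF2 at the Ppargc1a promoter, had control values of 4.58 to 4.63 and P. gingivalis values of 4.36 to 4.54 (difference -0.19 ± 0.061, SE, adjusted p = 0.367 by limma). Yy1, a DNA-binding partner of PGC-1α, stood at -0.20 (-0.05 and -0.06 on its dimmer probes). Sirt1, the deacetylase that activates PGC-1α, stood at -0.16 (-0.20 on its other probe), and the groups did not overlap for either gene. Nrip1, a corepressor of these receptors, stood at 0.44 on its brightest probe and at 0.35, -0.15, -0.16 and -0.35 on its dimmer ones. Prkaa2, the main AMPK catalytic subunit of muscle, stood at -0.0028.

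Among receptor partners and related nuclear receptors, 11 of 16 were lower and 5 higher, with a median of -0.054. Nr1d1, the clock repressor REV-ERBα, read 1.06, 0.70, 0.86 and 0.80 in the controls and 0.18, 0.34, 0.38 and 0.21 in the P. gingivalis arrays, without overlap (-0.58 ± 0.091, SE, adjusted p = 0.309 by limma). Pparg, the PPAR of fat cells, stood at -0.19, the thyroid hormone receptor Thrb at 0.22 and Rxra, which pairs with PPARs on DNA, at -0.11. Genes otherwise known to rise with PGC-1α were split, with 10 of 21 higher, 11 lower, a median of -0.0023 and none under an unadjusted p of 0.05. Fndc5, the precursor of irisin, stood at -0.037 and Vegfa, an angiogenic factor, at -0.18, and the 3 genes of lowest p were Chchd4 (0.12), Gpx1 (0.083) and Sod2 (-0.09).

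**Figure D4:**
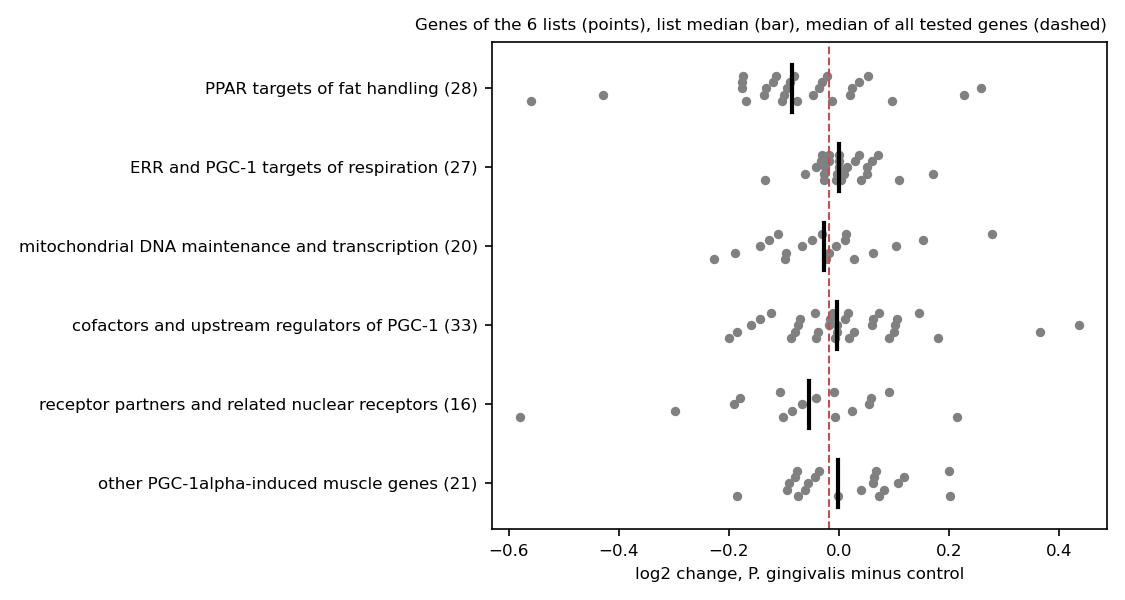
Log2 difference between P. gingivalis and control arrays for each tested gene of the 6 lists (points), with the list median as a bar, the number of genes in brackets and the median of all 17584 tested genes as a dashed line. The PPAR target list has the lowest median (-0.086) and the respiration list is the narrowest.

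The genes whose pattern over the 8 arrays was most like that of Ppargc1a were Mxra7, Pde4a and Oxnad1, with root mean square differences of 0.0513, 0.0561 and 0.0584 log2 units from its centred values, where the median gene differed by 0.204. For Ppara, the member that varied most, they were Gpsm2 (0.119), Apcdd1 (0.131) and Matn2 (0.132), with 0.377 for the median gene. In all 6 genes control 2 was the lowest of the 8 arrays, as it was for Ppargc1a and Ppara. The genes were chosen to match those patterns, so this shared place follows from the choice and tells nothing further about control 2. These are descriptions over 8 arrays drawn from 17570 genes.

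Fibre markers showed that the samples were muscle. All 8 fast fibre markers were well above background. Their summed signal relative to the 75th percentile was 5309 to 5805 in controls and 5808 to 6119 in P. gingivalis muscle. These ranges did not overlap, but their nearest ends lay close together. All 8 markers stood higher (median 0.11), with none under an unadjusted p of 0.05 (lowest adjusted p = 0.448 by limma). On dimmer probes Myh4 stood at -0.13 and -0.05, Tnnt3 at 0.17 and 0.11 and Mylpf at 0.32. The percentile used for scaling was 275 to 306 in controls and only 238 to 255 after P. gingivalis. Whether that shift moved the sum was not tested. All 8 adipocyte markers were present, with sums of 89.4 to 101 in controls and 73.6 to 90.5 in P. gingivalis muscle. Of these 8 markers 5 stood higher and 3 lower, from -0.66 to 0.18 with a median of 0.037. The 1 with an unadjusted p under 0.05 was Fabp4 (-0.24), a fatty acid carrier that endothelium also makes. Of brown fat markers Ucp1 and Elovl3 were not well above background on enough arrays to be tested. The 3 brown or beige fat markers that were tested all stood lower, with a median of -0.11. Sums overlapped for slow fibre (256 to 299 and 291 to 299), endothelial (12.9 to 16.2 and 11.4 to 14.3), fibroblast and tendon (129 to 162 and 154 to 176), macrophage (20.6 to 26.3 and 23.9 to 32.9) and nerve markers (9.1 to 11.4 and 9.36 to 12.7). All 6 fibroblast and tendon markers stood higher in P. gingivalis muscle, with a median of 0.41, and the collagen gene Col1a1 (1.01) and the matrix proteoglycan Lum (0.65) did not overlap between groups. Of 6 macrophage markers 5 stood higher, with Csf1r at 0.35 and Cd163 at 0.64 under an unadjusted p of 0.05. All 7 slow fibre markers stood higher (median 0.13), and all 6 endothelial markers lower (median -0.047), with Kdr, a VEGF receptor, at -0.59. None passed adjustment by limma (lowest adjusted p = 0.323). The part of these cell types in the values above was not tested, and in bulk tissue fewer cells of a type and less RNA per cell cannot be told apart.

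**Figure D5:**
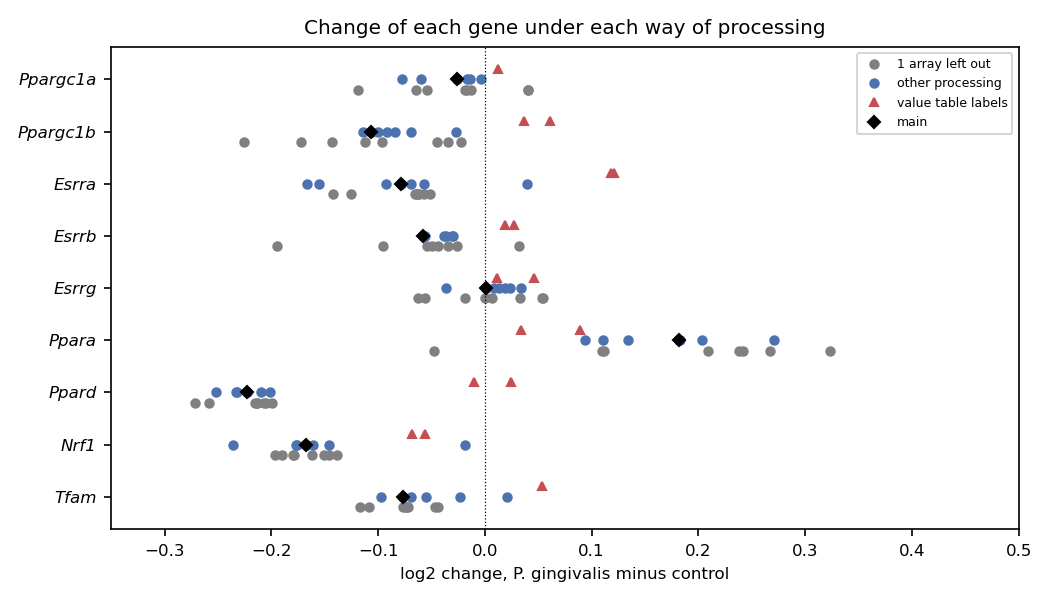
Log2 difference between P. gingivalis and control arrays for each gene as reported (black diamonds), with 1 array left out (grey), under other processing choices (blue) and with the labels of the value table (red triangles). As reported, Ppard (-0.22) and Nrf1 (-0.17) lie furthest to the left, and the triangles lie nearer to 0 for both.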

How the data were processed

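The authors deposited 1-colour (Cy3) spot intensity values from 200 ng of RNA per sample. Agilent Feature Extraction made them; the file headers give version 11.0.1.1, and the submitters' processing notes give 11.1. These were background-subtracted and detrended within the array, per the file headers, and probe positions are on mm9. The deposited value table holds log2 signals of 24764 probes, with column medians of 7.357 to 7.374, and how it was scaled was not stated. Flags in the deposited files, classed here as other values, mark spots well above background and outliers, which were left out.

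The processed intensity was taken as log2 less the 75th percentile of all non-control spots of the array, and spots of a probe were averaged. Probes well above background on at least 4 arrays were tested with limma 3.58.1 in R 4.3.3, with no covariate, and adjusted over all tested probes. The fit was checked on simulated data with shifts larger than any member difference. That check does not cover differences of the size reported for the 9 genes. A gene is its tested probe of highest mean. Of 56605 probes, 32994 were named by accession, 10224 by current symbol and 520 by synonym through the RefSeq table of GRCm38.p6, and the others kept the file's name. Promoters are RefSeq's, on GRCm38.p6.

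The members, lists and tests were chosen with earlier results of these data known. Named genes are all members, the first 2 genes of each list and its 3 of lowest p, and the 3 genes nearest to Ppargc1a and to the most variable member over the arrays. Genes outside this rule were named after their values were seen. Each column of the value table matched 1 array (correlations 0.833 to 0.88, next best at most 0.0784), 2 under the same label and 4 in the same group. Same-numbered arrays, which share a slide column, correlated at 0.0069 to 0.0629 in their deviations from the group means and were not treated as pairs. Figures were drawn with matplotlib 3.10.9.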

Additional observations from a re-analysis of the deposited data

Results flagged for a closer look

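In 94 groups of 4 arrays examined for the named genes, 8 had an array far from the other 3, by Dixon's 95% critical value; chance flags about 1 in 20 such groups. P. gingivalis 4 lay above the other P. gingivalis arrays for Esrra (5.80 against 5.61 to 5.62) and on the dimmer Tfam probe (1.93 against 1.82 to 1.83), and P. gingivalis 2 for Ppargc1a (2.92 against 2.80 to 2.82). Control 2 lay below the other controls for Esrra (5.55 against 5.78 to 5.82). P. gingivalis 1 was low on the second Nrf1 probe (-0.38 against -0.20 to -0.18) and for Gabpb1 (0.11 against 0.21 to 0.23). Control 1 was high for Cycs (8.26 against 8.16 to 8.17) and for Sirt1 (1.30 against 1.19 to 1.20).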

How the results depend on the processing

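No member probe passed adjustment under any of the 19 alternatives that give adjusted p-values. Over all probes, limma called 14 with normexp correction, 2 without a filter, 2 with an intensity trend and 1 in the value table with matched groups. Of probes with an unadjusted p under 0.05, 43.2% were higher in P. gingivalis muscle, against 78.5% with normexp correction and 57.5% with median scaling; 12 of the 18 member probes stood lower under each.

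Under the value table's grouping, 1224 of the 31649 tested probes had an unadjusted p under 0.05 by limma, against 3544 as reported. The value table's own values and labels gave 906 of its 24764 probes. Which source holds the right groups was not settled. With the table's grouping the difference reversed for Ppargc1a (0.012), Ppargc1b (0.037), Esrra (0.12), Esrrb (0.028) and Tfam (0.053). The value table under its own labels reversed Ppargc1b (0.061), Esrra (0.12), Esrrb (0.019) and Ppard (0.024). It holds neither the brightest Ppargc1a nor the brightest Tfam probe. Esrra reversed on the 4 arrays of the same group in both sources (0.039), Esrrg with normexp (-0.037) and Tfam by the mean over probes (0.021). With 1 array left out, differences ran from -0.12 to 0.041 for Ppargc1a, -0.19 to 0.032 for Esrrb, -0.063 to 0.054 for Esrrg and -0.048 to 0.32 for Ppara, and kept their direction for the other 5 genes.

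The PPAR target median moved to -0.041 with the groups of the value table and 0.00998 under its own labels, the cofactor median to -0.044 with those groups and between -0.016 and 0.040 (without control 2) with 1 array left out, and the median of other PGC-1α-induced genes to 0.053 on the 4 shared arrays and 0.074 under the table's labels. The cause of these shifts was not tested. With the replicate number as a block, limma gave Ppard an unadjusted p of 0.0243 (adjusted 0.438, difference -0.22) and Nrf1 0.0616 (adjusted 0.476), and 3406 probes under 0.05 against 3544; it changed no call. Of the controls only control 1 correlated best with its own number.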
